A study of Mus musculus with 6 samples.

Results

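The 10 genes described here are cytokine and feedback genes of the NF-κB pathway, measured in the stromal vascular fraction (SVF) of mouse gonadal white adipose tissue (gWAT). They are 5 cytokine genes (Il1b, Il1a, Il1rn, Tnf and Il6), 4 genes of feedback regulators (Nfkbia, Nfkbiz, Tnfaip3 and Zfp36) and 1 enzyme gene (Ptgs2). All 10 were found among the 22180 genes that the array annotation names without ambiguity, each with 1 probe set. They were chosen by name with the comparison of CL-treated and vehicle-treated arrays already known, so their own levels in that comparison are given as a description with no test. Collagenase digestion frees the SVF from fat as a mixture of every cell type but the mature adipocyte. It was taken from wild-type C57Bl/6 mice, 8 weeks old by the labels, after intraperitoneal CL316243 (CL), a β3-adrenoceptor agonist given daily for 3 days at 1 mg per kg in 0.1 ml, or after vehicle. There were 3 arrays per group, numbered in the labels as biological replicates, and both groups carry no engineered allele. The study's general methods give a longer course of CL, and its fractionation methods give younger female mice. Which of these applies to the arrays is not settled by the sources used here.

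NF-κB is a family of transcription factors that IκB proteins hold inactive in the cytoplasm until signals from Toll-like, IL-1 or TNF receptors trigger the IKK kinases, which mark IκB for degradation. The freed factors switch on inflammatory genes such as Tnf, Il1b and Il6, and also genes that end the response, among them the IκB gene Nfkbia itself. In adipose tissue, macrophages and other stromal cells are known sources of these cytokines.

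Values are log2 levels made by RMA, and the difference of a gene is its log2 fold change, the CL mean minus the vehicle mean. A background level of 3.59 was set from 1394 olfactory and vomeronasal receptor genes, and a gene under it is not well measured. Array medians over the genes tested lay between 4.27 and 4.37 with CL and between 4.29 and 4.32 with vehicle. Over all probe sets they did not overlap, at 3.74 to 3.80 with CL and 3.84 to 3.90 with vehicle. All 8 adipose progenitor, 12 macrophage and 8 endothelial markers measured were above background in both groups. Of 7 markers of mature adipocytes, which the SVF should lack, none passed the test across all genes, and their summed linear level overlapped, at 76.3% to 203.5% of the vehicle mean with CL and 78.2% to 126% with vehicle. Their median log2 fold change was 0.72, and 5 of the 7 had a higher mean with CL. For 3 of them every CL array lay above every vehicle array, against 11.2% of all genes. Adipoq measured 8.21 ± 0.43 with CL and 6.97 ± 0.28 with vehicle, and Plin1 7.28 ± 0.62 with CL and 5.84 ± 0.27 with vehicle (means, SD, n = 3 each). Cidec, 1 of the 2 with a lower mean, measured 7.55 with CL and 8.06 with vehicle.

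All 10 genes had a lower mean in the CL-treated SVF, with a median log2 fold change of −0.90, against 0.00 over all genes. For 8 of the 10, every CL array lay below every vehicle array, a pattern found in 8.72% of all genes. At least a 2-fold lower level was measured for 4 of them (Il6, Il1b, Tnf and Il1rn), against 0.473% of all genes. In the fit across all genes with limma, 2 of the 10 (Il1b and Nfkbiz) were past an adjusted p of 0.05 and lower, against 0.126% of all genes, and none was higher, against 0.198%. Since this comparison chose the genes, nothing is read from these counts. In RNA of a mixed fraction, fewer cells of a type and less RNA per cell cannot be told apart.

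**Figure D1:**
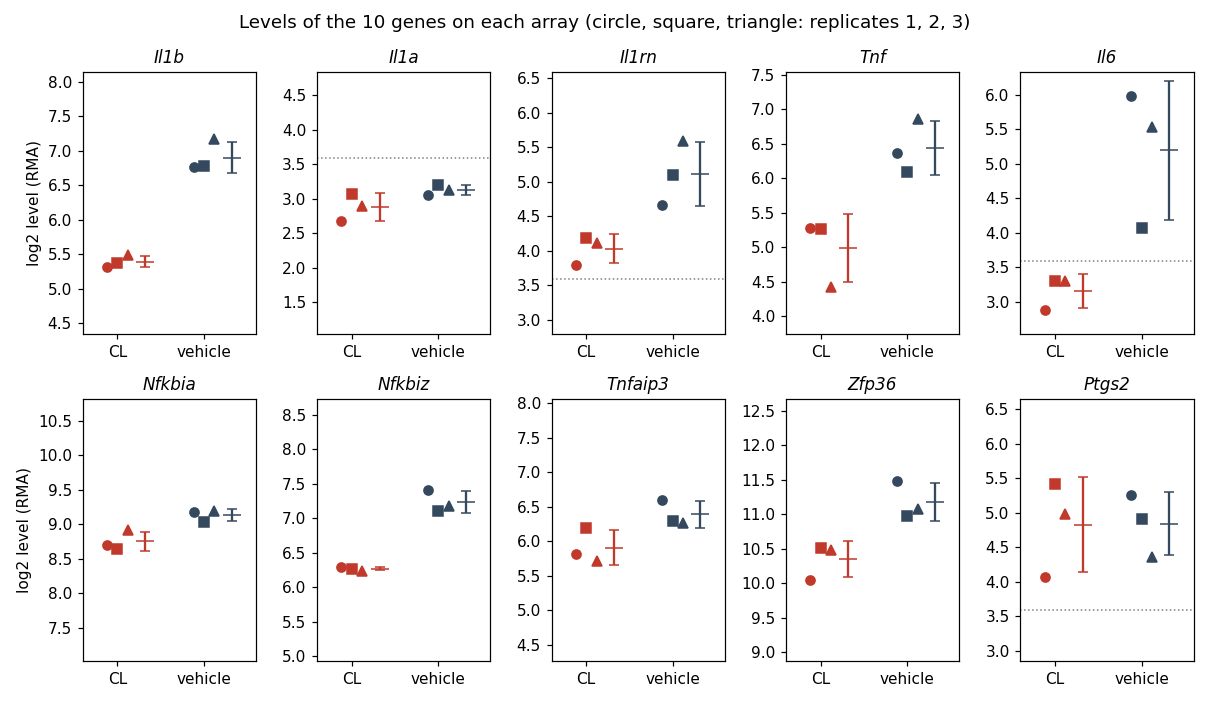
Log2 levels (RMA) of the 10 genes on each array, CL left and vehicle right in each panel, with the group mean and SD beside the points. A dotted line marks the background level of 3.59 in the panels that reach it, those of Il1a, Il1rn, Il6 and Ptgs2. Each panel spans the same height in log2 units. The groups are apart for all genes except Il1a and Ptgs2.

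The start-site regions of the genes are shown because several of these genes are textbook NF-κB targets. Of the 10 genes, 9 had an entry in the promoter table (RefSeq, GRCm38.p6) and Nfkbiz had none. Both strands were searched for the κB consensus. It was found upstream of the start site of Il6, Nfkbia and Tnfaip3, that is in 3 of 9 genes, against 5.54% of 16990 tested genes with an entry. The letters TGACG, the core of the cAMP response element, were found in Il6, Ptgs2 and Tnfaip3 (26.8% of tested genes), and TATAA in Il1a, Il1b, Il1rn, Nfkbia, Tnf and Tnfaip3 (25.0% of tested genes). A match is only a match of letters, and the absence of one says only that these letters are not in this short window. The 3 regions with a κB match follow, with the match in capitals, and then that of Il1b, which has none and whose groups were the farthest apart.
Il6, chr5:30012864-30013163, plus strand: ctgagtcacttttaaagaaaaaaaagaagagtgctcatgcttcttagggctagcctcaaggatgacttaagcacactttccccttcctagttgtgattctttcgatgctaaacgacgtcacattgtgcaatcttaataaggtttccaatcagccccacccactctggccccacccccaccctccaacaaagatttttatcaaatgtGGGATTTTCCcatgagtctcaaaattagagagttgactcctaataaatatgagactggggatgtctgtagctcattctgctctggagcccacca
Nfkbia, chr12:55492598-55492897, minus strand: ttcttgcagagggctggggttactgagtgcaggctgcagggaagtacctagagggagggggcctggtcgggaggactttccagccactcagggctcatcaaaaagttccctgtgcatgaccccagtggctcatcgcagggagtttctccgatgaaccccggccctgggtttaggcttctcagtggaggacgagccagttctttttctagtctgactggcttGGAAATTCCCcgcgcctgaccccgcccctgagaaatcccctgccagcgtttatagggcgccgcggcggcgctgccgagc
Tnfaip3, chr10:19015361-19015660, minus strand: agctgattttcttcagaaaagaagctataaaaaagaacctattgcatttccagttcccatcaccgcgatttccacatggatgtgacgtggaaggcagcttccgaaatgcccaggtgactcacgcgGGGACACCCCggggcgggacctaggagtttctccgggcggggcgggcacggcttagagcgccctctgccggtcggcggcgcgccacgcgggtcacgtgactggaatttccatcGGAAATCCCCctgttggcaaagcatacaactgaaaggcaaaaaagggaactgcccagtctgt
Il1b, chr2:129371090-129371389, minus strand: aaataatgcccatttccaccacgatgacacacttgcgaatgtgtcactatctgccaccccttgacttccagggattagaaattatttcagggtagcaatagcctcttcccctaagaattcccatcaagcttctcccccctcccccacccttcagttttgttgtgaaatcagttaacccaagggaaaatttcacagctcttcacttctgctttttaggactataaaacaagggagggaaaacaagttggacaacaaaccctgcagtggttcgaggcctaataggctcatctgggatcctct
In Il6 the match began 44 bases before the start site and in Nfkbia 29 bases before it. Tnfaip3 held 2 matches, which began 125 and 12 bases before its start site. The genes with a κB match thus included Il6, with the largest difference of the 10, and Nfkbia and Tnfaip3, with small ones.

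Among the cytokines, Il1b encodes IL-1β, a secreted activator of the IL-1 receptor. Its level was 5.32, 5.37 and 5.49 on the CL arrays, against 6.76, 6.78 and 7.17 on the vehicle arrays. The groups were 1.27 apart at their nearest arrays, the widest gap of the 10, while the CL arrays spanned only 0.17. This is a difference of −1.51 on the log2 scale with a standard error of 0.16, a 2.84-fold lower level. With any 1 array left out it stayed between −1.58 and −1.38.

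Tnf encodes tumour necrosis factor, which itself activates NF-κB through its receptors. It measured 5.28, 5.26 and 4.42 with CL, against 6.36, 6.10 and 6.86 with vehicle. CL replicate 3 stood below the other CL arrays, and the groups did not overlap. Its difference was −1.46 with a standard error of 0.27, a 2.74-fold lower level, and it was −1.17 without CL replicate 3.

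Il6 encodes interleukin-6, a cytokine that many stromal cells secrete. On the CL arrays it measured 2.88, 3.30 and 3.30, all under the background level of 3.59. The vehicle arrays gave 5.99, 4.07 and 5.53, so vehicle replicate 2 lay far below the other vehicle arrays but still above all CL arrays. Its difference, −2.03 with a standard error of 0.42, was the largest of the 10 in size, but the CL level is under background and the vehicle arrays spanned 1.92. It was −2.60 without vehicle replicate 2 and −1.64 without vehicle replicate 1.

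Il1rn encodes the IL-1 receptor antagonist, which occupies the receptor without activating it. It measured 3.80, 4.18 and 4.12 with CL and 4.66, 5.10 and 5.59 with vehicle. The groups did not overlap, and the vehicle arrays spread over 0.93. In log2 units the difference was −1.08 with a standard error of 0.24, a 2.12-fold lower level. The antagonist thus had a lower level alongside the agonist Il1b.

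Il1a, the gene of the other IL-1 receptor agonist, was under background in both groups, at 2.67, 3.07 and 2.89 with CL and 3.05, 3.20 and 3.12 with vehicle. The arrays of the groups overlapped. The difference of −0.25 (standard error 0.15) is therefore not well measured.

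Genes were also set against each other within each array, which removes a shift shared by all genes of an array. The log2 difference Il1b minus Il1rn was 1.53, 1.19 and 1.37 with CL, against 2.11, 1.68 and 1.58 with vehicle. The change of this difference, −0.42, was smaller than that of either gene. For Tnf minus Tnfaip3, the cytokine and an inhibitor of its signalling, the values were −0.53, −0.93 and −1.29 with CL and −0.24, −0.19 and 0.60 with vehicle, again without overlap. For Tnf minus Zfp36 they were −4.77, −5.25 and −6.07 with CL and −5.12, −4.87 and −4.21 with vehicle, and the groups overlapped. These pairs were picked after the levels had been seen, and only the differences between groups, not the signs, can be read, because probe sets differ in brightness.

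Among the feedback regulators, Nfkbia encodes IκBα, the inhibitor that NF-κB induces to return itself to the cytoplasm. Its level was 8.71, 8.64 and 8.91 with CL and 9.18, 9.03 and 9.19 with vehicle. The groups did not overlap, but the nearest arrays were only 0.12 apart. This gives a difference of −0.38 with a standard error of 0.14, a 1.30-fold lower level.

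Nfkbiz encodes IκBζ, a nuclear IκB protein that takes part in the induction of a subset of targets such as Il6. It measured 6.29, 6.27 and 6.24 with CL, against 7.41, 7.11 and 7.17 with vehicle. The CL arrays lay closer to each other than for any other of the 10 genes, and the highest of them was 0.81 below the nearest vehicle array. Its difference was −0.96 with a standard error of 0.14, a 1.95-fold lower level, and it stayed between −1.02 and −0.87 with any 1 array left out.

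Tnfaip3 encodes A20, a ubiquitin-editing enzyme that shuts off signalling from TNF and Toll-like receptors. It measured 5.81, 6.20 and 5.71 with CL and 6.60, 6.29 and 6.26 with vehicle. CL replicate 2 came within 0.07 of the lowest vehicle array. In log2 units the difference was −0.48 with a standard error of 0.18, a 1.39-fold lower level.

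Zfp36 encodes tristetraprolin, which binds AU-rich elements and speeds the decay of mRNAs such as that of Tnf. It was well above background on every array, at 10.05, 10.51 and 10.49 with CL and 11.49, 10.97 and 11.08 with vehicle. The groups did not overlap and were 0.47 apart at the nearest arrays. This gives a difference of −0.83 with a standard error of 0.19, a 1.78-fold lower level.

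Ptgs2 encodes COX-2, the inducible enzyme of prostaglandin synthesis and a known NF-κB and cAMP target. Like Il1a, it showed no separation of the groups. Its levels of 4.07, 5.42 and 4.99 with CL overlapped those of 5.25, 4.91 and 4.36 with vehicle, and the highest of all 6 values was on a CL array. Its difference was −0.02 with a standard error of 0.35, and the sign turned with the array left out, with 0.36 without CL replicate 1 and −0.31 without CL replicate 2.

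**Figure D2:**
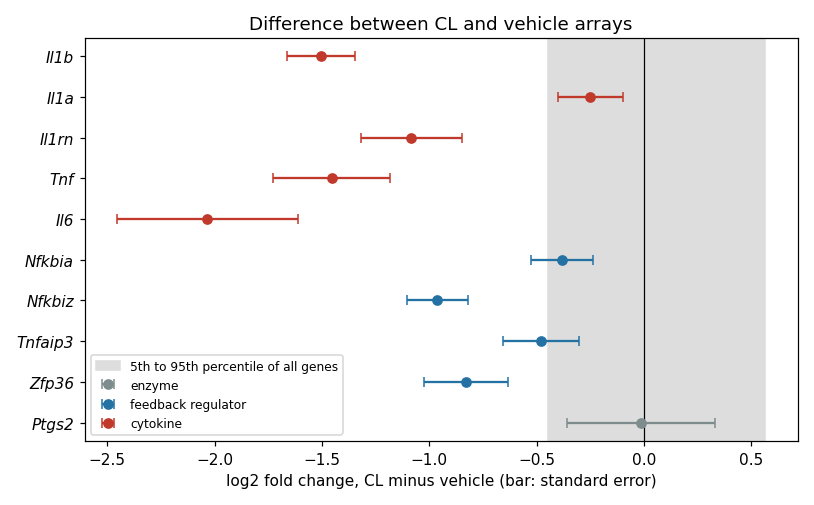
Log2 fold change (CL minus vehicle) of each gene, with its standard error from limma, coloured by role, and the range from the 5th to the 95th percentile of all genes in grey (−0.45 to 0.56). The values run from −2.03 for Il6 to −0.02 for Ptgs2, and 7 of the 10 lie below the grey range.

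The arrays of a group did not share 1 order across the genes. Within the CL group, replicate 1 was the lowest for 6 genes and replicate 2 the highest for 6. Within the vehicle group, replicate 1 was the highest for 5 genes (Il6, Nfkbiz, Tnfaip3, Zfp36 and Ptgs2), while replicate 3 was the highest for 4 (Il1b, Il1rn, Tnf and Nfkbia). The median level of the 10 genes relative to their vehicle means was −1.03, −0.80 and −0.84 on the CL arrays and 0.11, −0.11 and 0.03 on the vehicle arrays. No array stood apart from its group by this measure. Replicate 2 of each group did stand apart in the summed linear level of 6 epithelial markers. That level was 35.3%, 421% and 90.3% of the vehicle mean on the CL arrays, and 44.6%, 210% and 45.7% on the vehicle arrays. The part of such cells in the levels of the 10 genes was not tested.

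Beyond these genes, 161 distinct genes of 15 lists around the pathway, ordered by role, were read from the same fit across all genes. In limma 3 of them fell and none rose at an adjusted p under 0.05, against 0.126% and 0.198% of all genes. Their median log2 fold change was −0.04.

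The 3 that fell were Nfkbid, Ier3 and Nr4a1. Nfkbid encodes another nuclear IκB protein, IκBNS. It measured 4.51, 4.72 and 4.49 with CL and 5.49, 5.51 and 5.50 with vehicle, a difference of −0.92 (standard error 0.14, adjusted p = 0.0366 from limma, range 0.0279 to 0.196 over the alternative settings). Ier3, an early response gene of stress and NF-κB signalling, measured 6.64, 7.09 and 7.05 with CL and 8.71, 8.32 and 7.94 with vehicle. The difference of Ier3 was −1.40 (standard error 0.22, adjusted p = 0.0446, range 0.0205 to 0.288). For both genes the groups did not overlap, but neither passed with any 1 array left out, at an adjusted p of 0.0802 to 0.156 for Nfkbid and 0.0728 to 0.156 for Ier3. Nr4a1, an immediate early gene that encodes a nuclear receptor, measured 6.87, 7.05 and 6.60 with CL and 8.69, 8.16 and 8.32 with vehicle. The difference of Nr4a1 was −1.55 (standard error 0.19, adjusted p = 0.0249, range 0.00633 to 0.257), and with 1 array left out it passed only without vehicle replicate 2, at 0.0419, against 0.0561 to 0.114 without any other array.

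No measured gene of the machinery that carries the signal passed, where 0.126% of all genes were called lower and 0.198% higher. At these shares lists of this size would be likely to hold no call, so nothing is read from it. Nfkb1, Chuk, Il1rl1, Irak4, Traf3, Ripk1 and Ripk2 had no row of their own and were not analysed. Of 4 NF-κB subunit genes none passed, with a median of 0.01. Among them Rel, which encodes c-Rel, had a difference of −0.69 (adjusted p = 0.106) with no overlap of the groups, and Rela, which encodes p65, had 0.20 (adjusted p = 0.555). None of 10 genes of the IKK complex and its upstream kinases passed (median −0.02), and the largest differences above background were those of Ikbke (0.55, adjusted p = 0.228) and Ikbkb (−0.32, adjusted p = 0.444). None passed of 12 Toll-like receptors and co-receptors (median 0.07), 10 cytokine receptors (median 0.05) or 14 receptor adaptors and kinases (median 0.01). These 3 medians, and that of the subunits, lay below 0 under quantile normalization and cyclic loess, at −0.08 to −0.03, and those of the subunits and adaptors also under median centring. Leaving out 1 array also turned the sign of the medians of the subunits, the IKK list, the Toll-like receptors and the adaptors. Of the Toll-like receptor genes, Tlr6 had a difference of −0.61 (adjusted p = 0.429) and Tlr5, the flagellin receptor gene, 0.58 (adjusted p = 0.450). Of the adaptor genes, Ticam1 had 0.59 (adjusted p = 0.161) and Tirap 0.32 (adjusted p = 0.678). Of the cytokine receptor genes, Il18rap, of the IL-18 receptor, had −0.61 (adjusted p = 0.150) and Il10ra, of the IL-10 receptor, −0.35 (adjusted p = 0.315).

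Of 5 other IκB family genes 1, Nfkbid, fell, and the median was −0.09, or 0.02 without CL replicate 1. Bcl3, whose protein binds NF-κB in the nucleus, had a difference of −0.18 (adjusted p = 0.732), and Nfkbil1 had 0.10 (adjusted p = 0.809). Of 20 other feedback regulators 1, Ier3, fell, 13 had a lower mean and the median was −0.14. Socs3, an inhibitor of IL-6 signalling through STAT3, had a difference of −1.16 (adjusted p = 0.0639, range 0.0313 to 0.306), with no overlap of the groups. Tnip3, a partner of A20, had −0.92 (adjusted p = 0.314), and passed without vehicle replicate 2 at 0.0409.

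None of 12 genes of the inflammasome and IL-1 processing passed, and their median was 0.18, or 0.04 without vehicle replicate 2. Pycard, the adaptor that recruits caspase-1, had 0.48 (adjusted p = 0.404) and P2rx7, an ATP-gated channel gene, 0.47 (adjusted p = 0.279). None of 14 genes of prostaglandin synthesis and receptors passed, with a median of 0.15. The receptor gene Ptgfr had a difference of 1.00 (adjusted p = 0.0592) and Hpgd, whose enzyme inactivates prostaglandins, 0.59 (adjusted p = 0.184), both with every CL array above every vehicle array, as was found for 11.2% of all genes. None of 7 AU-rich RNA binding protein genes passed, with a median of −0.10, and Zfp36l2, a relative of Zfp36, had −0.21 (adjusted p = 0.526) while Khsrp had 0.66 (adjusted p = 0.205).

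None of 3 other IL-1 family ligands passed (median 0.27, from 0.02 without vehicle replicate 2 to 0.51 without vehicle replicate 1), with Il33 at 0.47 (adjusted p = 0.342) and Il18 at 0.27 (adjusted p = 0.687). None of 6 other IL-6 family ligands passed (median −0.27), with Il27 at −0.37 (adjusted p = 0.452) and Lif at −0.30 (adjusted p = 0.758). Of 19 other known NF-κB targets none passed and 14 had a lower mean, with a median of −0.28. Cxcl2, a neutrophil-attracting chemokine gene, measured 5.87, 7.06 and 6.89 with CL and 8.89, 7.79 and 8.77 with vehicle, a difference of −1.87 (standard error 0.37, adjusted p = 0.0771, range 0.0471 to 0.353). Ccl4, another chemokine gene, had −1.18 (adjusted p = 0.177). The list's median was −0.17 without CL replicate 2.

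**Figure D3:**
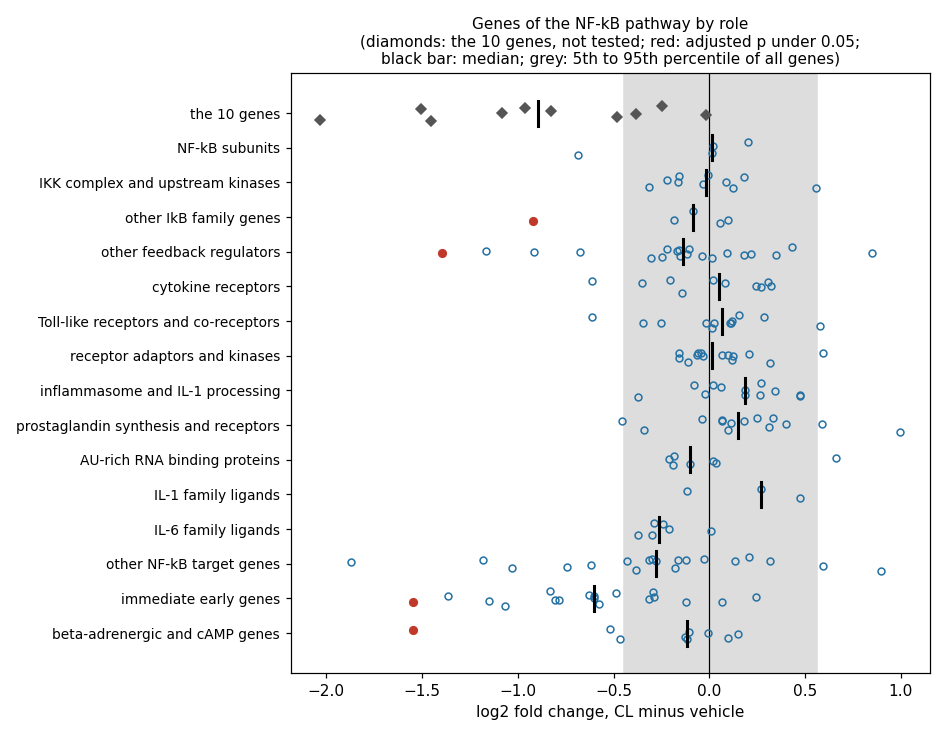
Log2 fold change (CL minus vehicle) of each gene by list, with the median as a black bar and red points for genes at an adjusted p under 0.05 in limma. The 10 genes described here, shown as grey diamonds without a test, have a median of −0.90, the immediate early genes one of −0.60, and the other lists between −0.28 and 0.27. Grey marks the 5th to the 95th percentile of all genes.

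Other gene lists were read beside the 10 genes. Of 18 immediate early genes, which many stimuli are known to induce within minutes, 16 had a lower mean with CL, 13 had every CL array below every vehicle array (8.72% of all genes) and 1, Nr4a1, fell. Their median log2 fold change was −0.60. Atf3 had −1.37 (adjusted p = 0.0605, range 0.0292 to 0.309) and Btg2 −1.15 (adjusted p = 0.0521, range 0.0190 to 0.286). The summed linear level of the list was 63.1%, 71.0% and 62.8% of the vehicle mean on the CL arrays, and 119%, 97.3% and 83.6% on the vehicle arrays, without overlap. Of 9 genes of β-adrenoceptor and cAMP signalling 1, again Nr4a1, fell (median −0.11), and the cAMP-induced genes Crem and Pde4b had −0.47 (adjusted p = 0.203) and −0.52 (adjusted p = 0.315). Of the other 14 lists of the pathway, 4 also had summed levels that did not overlap. They were lower with CL for the cAMP genes (67.6% to 75.3% with CL and 93.9% to 111% with vehicle), the other feedback regulators (71.2% to 87.1% with CL and 90.6% to 115% with vehicle) and the IL-6 family ligands (81.5% to 85.8% with CL and 94.8% to 103% with vehicle), and higher with CL for the cytokine receptors (105.5% to 111% with CL and 98.0% to 102% with vehicle). Nr4a1, which stands in both the cAMP and the immediate early list, had a linear mean of 115.5 with CL and 339.1 with vehicle. The median summed level of the cAMP list was 594.4 with CL and 792.7 with vehicle, so its lower sum was mostly that of Nr4a1. The part of the genes of these lists in the levels of the 10 was not tested.

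Among markers of the cells that make these cytokines, those of macrophages overlapped between the groups. None of 12 macrophage markers passed (median 0.17), and their summed linear level was 99.2% to 114% of the vehicle mean with CL and 90.9% to 115% with vehicle. Of 8 monocyte markers 1 fell, Ly6c2, a surface marker gene of inflammatory monocytes, with 8.36, 8.21 and 8.23 with CL and 9.11, 9.21 and 9.23 with vehicle (difference −0.92, standard error 0.13, adjusted p = 0.0366, range 0.0115 to 0.185 over the alternatives). It did not pass with any 1 array left out, at 0.0795 to 0.154. The median of the list was −0.10, with 6 lower and 2 higher means. Every CL array lay below every vehicle array for 3 of the 8 (8.72% of all genes), and above for 2 (11.2%). Of these 2, Plac8 had a difference of 0.66 (adjusted p = 0.102). The summed level of this list overlapped, at 95.7% to 112% with CL and 93.2% to 105.5% with vehicle.

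None of 12 neutrophil markers passed (median 0.07). Of them 9 had a higher mean with CL, but 4 of these 9 were under background in both groups. The summed level of the list was 49.9% to 88.8% of the vehicle mean with CL and 97.1% to 104% with vehicle, without overlap. In this list S100a8 had a difference of −1.43 (adjusted p = 0.0764) and S100a9 one of −0.77 (adjusted p = 0.189), both genes that monocytes also use, while Ltf had 1.01 (adjusted p = 0.426) and Retnlg 0.29 (adjusted p = 0.756). S100a8 (7.73 with CL and 9.16 with vehicle) and S100a9 (7.63 with CL and 8.40 with vehicle) were the brightest of the list with vehicle. A linear sum is weighted to the brightest genes, so the lower sum was that of S100a8 and S100a9 and not of the list at large. The higher mean of Ltf came from CL replicate 2, at 6.35 against 4.21 and 4.01 on the other CL arrays. The markers under background in both groups were Ly6g, Mmp8, Ngp and Camp. Csf3r (5.14 with CL and 5.04 with vehicle) and Cxcr2 (3.85 with CL and 4.02 with vehicle) had means above background. None of 7 dendritic cell markers (median 0.06) or 9 T and NK cell markers (median −0.11) passed. Of 7 mast cell markers 2 rose, the protease genes Tpsb2 (3.32, adjusted p = 0.0303) and Cpa3 (3.09, adjusted p = 0.0404), and the summed level of the list was 258.5% to 654% with CL and 79.1% to 132% with vehicle. With 1 array left out, Cpa3 did not pass (0.0638 to 0.161) and Tpsb2 passed only without vehicle replicate 1 (0.0253 to 0.140). Endothelial markers also had summed levels that did not overlap, at 47.5% to 85.1% with CL and 87.1% to 125% with vehicle, and none of 8 passed (median −0.62). Markers of adipose progenitors had a median of 0.27 and none of 8 passed. Of these 8, 6 had a higher mean with CL, and for 4 every CL array lay above every vehicle array (11.2% of all genes). The part of these cells in the levels of the 10 genes was not tested.

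**Figure D4:**
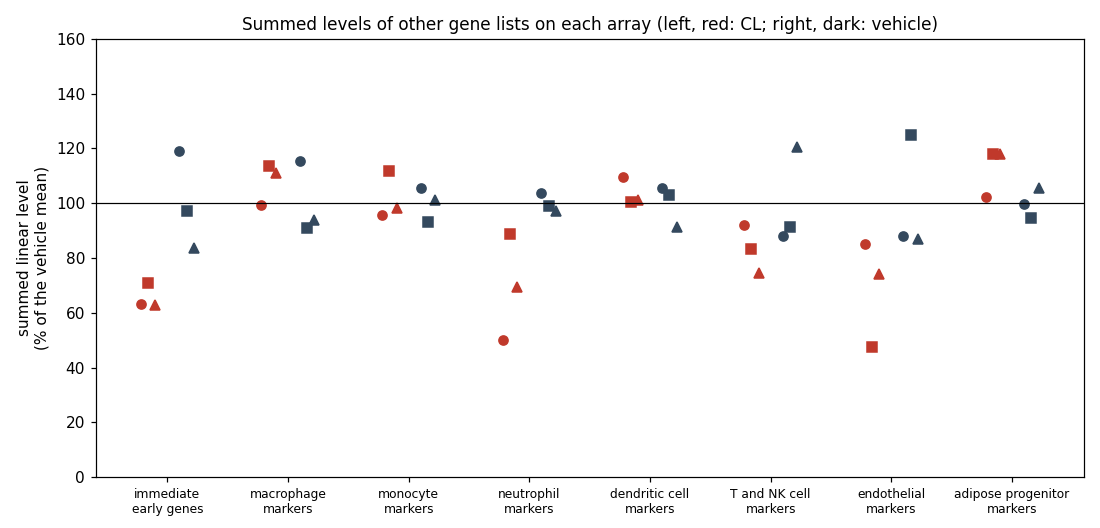
Summed linear level of the genes of each list on each array, in percent of the mean of the vehicle arrays, with CL in red on the left and vehicle in dark on the right of each list (circle, square and triangle for replicates 1, 2 and 3). Of the 8 lists plotted, the groups do not overlap for immediate early genes, neutrophil markers and endothelial markers, and overlap for the other 5. The lower sum of the neutrophil markers was that of S100a8 and S100a9.

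Finally, 12545 other genes above background were ranked by Pearson's r with the mean scaled level of the 10 genes over the 6 arrays. Predicted genes, with symbols of the Gm or Rik kind, were left out of this ranking. The 10 genes themselves had an r of 0.82 to 0.97 with this mean, except Ptgs2 with 0.27. The nearest others were Gprin3, Ube3a, Rel, Seh1l, Mir99a, Nfe2l3, Vmp1, Hspa1b, Tut7 and Snord89, with r between 0.982 and 0.993. These r values rest on 6 arrays in 2 groups and are given as a description. Rel, the c-Rel gene, measured 5.76, 6.22 and 6.04 with CL and 6.77, 6.67 and 6.64 with vehicle, and was the only one of the 10 nearest that also stood in a list of the pathway.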

How the data were processed

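The SVF of gWAT from mice treated with CL or vehicle was hybridised to 6 arrays (Affymetrix Mouse Gene 2.0 ST), 3 per group, grouped by the treatment in the labels. The authors deposited log2 levels, computed by RMA in Affymetrix Expression Console (submitters' processing notes), with background correction, quantile normalization and summary of each probe set. Such normalization sets the arrays to a like distribution, so changes are relative to it. Versions, the build of the annotation and any scan batch are not given in the sources used here. Precision is limited by the number of arrays. Of 41345 probe sets, 23521 carry 1 gene symbol, 1820 several and 16004 none. Only the first kind was used, with the probe set of the highest mean for 1082 genes with several, which left 22180 genes, 21994 of them found by gene number in the reference table. The background level was the 95th percentile of receptor genes of smell.

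Groups were compared with limma 3.58.1 in R 4.3.3 (lmFit and eBayes with no trend, two-sided tests). P-values were adjusted by the Benjamini-Hochberg method across all genes, with a threshold of 0.05. An exact permutation test over arrays was not used, since 3 against 3 cannot pass this threshold. The code was tested on simulated data. The 10 genes and all lists were chosen with earlier results of these data known. Of each list, every gene past the threshold (at most 4) and the 2 largest other differences above background were named for the pathway, as were the 10 genes of nearest pattern. The markers named were Adipoq, Plin1, Ly6c2, Plac8, S100a8, S100a9, Ltf, Retnlg, Csf3r, Cxcr2, Cidec, Tpsb2, Cpa3 and those of neutrophils under background. These markers do not come from this rule and were picked with their values in view. Genes of the lists with no row of their own were not analysed here. Promoter sequences were read from RefSeq (GRCm38.p6). The alternatives were the methods' t-test, eBayes with trend and robust, filters on dim genes, median centring, quantile normalization, cyclic loess, array weights, other rows per gene, the replicate number as a block, and each array left out in turn.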

Additional observations from a re-analysis of the deposited data

How the results depend on the processing

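The median log2 fold change of the 10 genes, −0.90, lay between −0.99 and −0.77 over all alternatives, and with 1 array left out between −0.98 and −0.77. Some of the 147 settings for the single genes could not move a log2 fold change. These were the filters on dim genes, the replicate block and other rows per gene, since each gene has 1 probe set. Across all 147 settings, the log2 fold changes of the single genes moved by less than the spread between replicates in 146. The exception was Nfkbiz, at −1.08 under cyclic loess. Counts of calls depended on the setting. Over all genes, 28 were called lower and 44 higher in limma. The methods' t-test gave 1047 and 1561 unadjusted and 0 and 0 after Benjamini-Hochberg adjustment. Testing every probe set by itself also gave 0 and 0. The eBayes trend gave 51 and 102, its robust form 56 and 121, and only genes above the median level 50 and 111. Quantile normalization gave 25 called higher and cyclic loess 23, with 32 and 30 called lower. With 1 array left out, 0 to 17 genes were called lower and 0 to 14 higher, with 0 of either without any CL replicate. Of the 10 genes, 2 were called lower. There were 3 under eBayes with trend and robust and with only genes above the median level. There were 0 with the methods' t-test after adjustment and with every probe set tested. With 1 array left out there were 0 to 2, where 0 passed without any CL replicate and 1 without vehicle replicate 1 or 3. Same-numbered arrays of the 2 groups deviated from their group means with r of −0.00, 0.10 and 0.06. For differently numbered arrays r lay between −0.10 and 0.05. All these r are small, and whether the replicate numbers of the labels pair the arrays is not settled by them. With the number as a block, 6 genes were called lower and 9 higher, and 1 of the 10 genes, Il1b. The median of the AU-rich RNA binding protein genes was −0.20 under quantile normalization and −0.21 under cyclic loess, and lay between −0.16 (without CL replicate 1) and −0.01 (without CL replicate 3) with 1 array left out, against −0.10. That of the other NF-κB targets, −0.28, was −0.18 with probe sets of a gene averaged.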
